A study of Caenorhabditis elegans with 16 samples.

Results

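The response of whole Caenorhabditis elegans to RNA interference (RNAi) against atp-2 was examined at 20 hr, gene by gene. Its product is the catalytic beta subunit of ATP synthase, the mitochondrial enzyme that makes ATP from the proton gradient of the respiratory chain. The genes described were all those with a mean of at least 1 TPM (transcript abundance corrected for length and scaled to the same total in each library) over the 5 libraries of 20 hr. This rule kept 12916 of 46904 genes in the deposited tables and made no use of the treatment. At its edge, F59B1.10 and C47E8.3 were just inside with means of 1.001 and 1.002 TPM, and msp-53 and C44H4.6 were just outside with 0.999 TPM.

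All worms were wild-type strain N2 and grew on the bacterial strain HT115. This Escherichia coli strain lacks a nuclease that would destroy double-stranded RNA, and worms that eat it take up the RNA it makes. Control worms ate HT115 carrying an empty vector, and treated worms ate HT115 making double-stranded RNA of atp-2. The treatment reaches all tissues that take up such RNA, so no cell type is targeted. There were 3 control libraries (replicates 1, 2 and 3) and 2 atp-2 RNAi libraries (replicates 2 and 3) at 20 hr, each of total RNA from whole worms. The series holds 16 libraries, 9 control and 7 atp-2 RNAi, and the stated aim was to relate disruption of a core cell function to neuronal genes for aversive learning and memory. The labels give neither the age or stage of the worms, nor the event from which hours were counted, nor whether each replicate was its own culture. The p-values therefore cover only the spread among these libraries, which may be technical.

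Correlations of log2 levels across genes were at least 0.988 among the 3 controls and 0.976 between the atp-2 RNAi libraries, and 0.491 to 0.512 between the groups. Against the single control libraries of 24, 36 and 48 hr, which come from other tables, the atp-2 RNAi libraries correlated at 0.842 to 0.924 and the controls of 20 hr at 0.448 to 0.584. Worm stage was not labelled, and its part in the results was not tested. Between 10619 and 10989 genes exceeded 1 TPM in a control library, against 12896 and 13565 in the atp-2 RNAi libraries. Control replicate 1 stood at least 2-fold below both other controls for 265 genes, against 4 and 25 genes for replicates 2 and 3. The 265 genes include all 6 yolk protein genes, and 168 of them still passed the test. Of the atp-2 RNAi libraries, replicate 3 stood at least 2-fold above replicate 2 for 654 genes, and the reverse held for 82 genes. Of those 654 genes, 485 were higher in atp-2 RNAi, with collagen and molting genes among them. Results resting on these libraries are given below with the values of each.

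As background, loss of ATP synthase activity in C. elegans is known to slow growth and to arrest development as larvae when it is severe. Cells with failing mitochondria turn on a set of nuclear genes for chaperones, detoxification and altered metabolism, in part through the transcription factor ATFS-1. The adult hermaphrodite devotes much of its RNA to the germline, which makes oocytes, and its intestine makes yolk for them. Larvae build a new collagen cuticle at each molt. In RNA of whole worms, fewer cells of a type and less RNA per cell cannot be told apart.

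Most measured genes differed between the groups. At an adjusted p of 0.05 (limma, Benjamini-Hochberg adjustment over all genes tested), 11411 of 12916 genes passed (88.3%). Of these, 6158 genes were higher in atp-2 RNAi (47.7%) and 5253 were lower (40.7%). Values of the groups did not overlap for 11919 genes (92.3%). Changes of at least 8-fold were fitted for 1210 higher and 1056 lower genes, and changes of at least 32-fold for 195 and 249. The median change of all genes tested was 0.31 on the log2(TPM + 1) scale, on which all fitted changes below are given and which understates the change of genes near 0. Scaled to a common median this shift was 0.19, and under quantile normalization 0.12. Since so many genes passed, the counts for gene lists below are to be read against the 47.7% and 40.7% of all genes. A gene near 0 in a group could reach the mean of 1 TPM only through the other group. The direction of such a gene was fixed by that minimum, and the lists were not split by it.

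**Figure D1:**
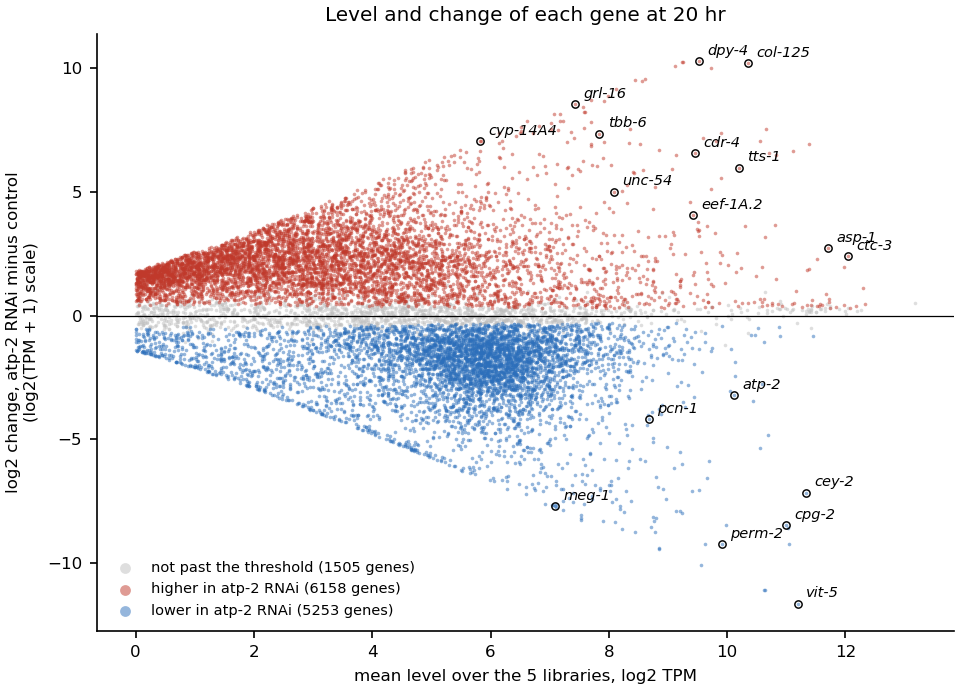
Each point is 1 of the 12916 genes tested, with its mean level over the 5 libraries on the x axis (log2 TPM) and its log2 change in atp-2 RNAi against control at 20 hr on the y axis. Genes of oocytes and yolk (vit-5, cey-2, cpg-2) sit at the bottom, cuticle collagens (dpy-4, col-125) at the top, and the target atp-2 among the falls at -3.21.

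The targeted RNA fell. The gene atp-2 (III:5228417-5230536, plus strand, WBcel235) stood at 1389, 1910.4 and 1872 TPM in controls 1, 2 and 3 and at 197 and 172 TPM in atp-2 RNAi replicates 2 and 3. The groups did not overlap, and the ratio of the means was 9.35 (log2 change -3.21, SE 0.17, adjusted p = 2.1e-06). In the single libraries, controls of 24, 36 and 48 hr stood at 2225, 2578 and 2607 TPM and atp-2 RNAi libraries of 24, 36 and 54 hr at 1043, 736 and 431 TPM. The next gene downstream on the same strand, prmt-5 (III:5230555-5234530), which encodes an arginine methyltransferase, went from 86.8, 77.1 and 77.8 TPM in the controls to 12.3 and 13.7 TPM in atp-2 RNAi (log2 change -2.54, SE 0.14, adjusted p = 2.3e-06). At 0 hr it fell by 2.50 on the log2 scale. Other neighbours fell less, among them mrps-26 (-1.09) and nex-1 (-0.79, or -0.18 and not past the threshold under quantile normalization).

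Protein genes of the mitochondrial genome rose together. This small circular genome encodes the core subunits of the respiratory complexes and of ATP synthase, and 12 of 12 such genes tested were higher, with a median change of 2.17. All 26 genes of mitochondrial DNA that were tested were higher, and mitochondrial DNA gave 0.970 to 1.21% of the TPM total in controls against 3.90 and 3.97% in atp-2 RNAi. The cytochrome oxidase subunit gene ctc-3 stood at 1755, 1546 and 1378 TPM in the controls and 8204 and 8189.7 TPM in atp-2 RNAi (log2 change 2.40, SE 0.14, adjusted p = 2.8e-06). Cytochrome b, ctb-1, stood at 1963, 1837 and 1863 TPM against 7054 and 7467 TPM (log2 change 1.94, SE 0.12, adjusted p = 3.2e-06). Both genes were high in each atp-2 RNAi library with no overlap. The ATP synthase subunit gene atp-6 of the same genome stood at 1508, 1251 and 1085 TPM against 4976 and 4491 TPM (log2 change 1.90, SE 0.16, adjusted p = 1.6e-05). The smallest member by level was ndfl-4, a complex I subunit gene, at 0.659, 0.469 and 0.583 TPM against 51.9 and 42.1 TPM (log2 change 4.93, SE 0.18, adjusted p = 6.5e-07).

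Nuclear genes of the respiratory machinery rose by less. Of 17 other nuclear ATP synthase genes, 14 were higher and 2 lower, with a median of 0.78, and scaled to a common median 9 were higher. Of 33 nuclear genes of the electron transport chain, 25 were higher and 3 lower, with a median of 0.66. The complex I gene gas-1 stood at 65.4, 61.1 and 55.9 TPM in controls and 255 and 210.5 TPM in atp-2 RNAi (log2 change 1.91, SE 0.14, adjusted p = 8.0e-06). The cytochrome c gene cyc-2.1 stood at 327, 280.3 and 285 TPM against 1036 and 880.3 TPM (log2 change 1.68, SE 0.13, adjusted p = 1.1e-05). Both were high in both treated libraries. The falls in these lists included second copies of a subunit. ATP synthase subunit b has a pair of genes: asb-1 stood at 433, 396 and 375 TPM in controls and 30.9 and 31.9 TPM in atp-2 RNAi (log2 change -3.63, SE 0.12, adjusted p = 4.7e-07), and asb-2 at 128, 149 and 143 TPM and 825 and 656 TPM (log2 change 2.39, SE 0.15, adjusted p = 3.4e-06). The succinate dehydrogenase paralog sdha-2 (change -3.48), the complex III paralog ucr-2.3 (-4.29) and the complex I paralog nduf-2.2 (-3.72) fell as asb-1 did. Mitochondrial ribosomal protein genes counted 6 higher and 35 lower of 71, with a median of -0.31, and under quantile normalization this turned to 37 higher and 8 lower with a median of 0.39.

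Genes of the mitochondrial unfolded protein response moved unequally. The list holds chaperones and other genes known to be turned on when mitochondria fail, and 11 of 23 were higher and 5 lower, with a median of 0.35, close to the 0.31 of all genes. Under quantile normalization 16 were higher and 3 lower with a median of 0.91, and the lower count was 2 without atp-2 RNAi replicate 3 and 3 without control replicate 2 or with the replicate number as a block. Its mitochondrial HSP70 gene hsp-6, the usual reporter of this response, stood at 685, 799 and 808 TPM in controls and 1085 and 872 TPM in atp-2 RNAi and did not pass (log2 change 0.35, SE 0.15, adjusted p = 0.052). Without atp-2 RNAi replicate 3, with a pseudocount of 0.1 TPM or in 1 fit with the 0 hr libraries it did pass, and under quantile normalization its change was -0.03. Far larger rises were those of tbb-6, a beta tubulin gene, and of cyp-14A4, a cytochrome P450 gene. The level of tbb-6 was 2.24, 2.18 and 2.68 TPM in controls and 409 and 729 TPM in atp-2 RNAi (log2 change 7.35, SE 0.25, adjusted p = 4.5e-07), against 3.25, 4.67 and 10.4 TPM in the single controls. For cyp-14A4 the values were 0.0478, 0.0726 and 0.0909 TPM and 164 and 119.8 TPM (log2 change 7.04, SE 0.19, adjusted p = 2.2e-07). Neither gene overlapped between groups, and tbb-6 is a known target of the p38 kinase PMK-3. All 6 genes of the DLK-1 to PMK-3 kinase list were higher, with a median of 1.96; mak-2, a kinase downstream of PMK-3, rose by 2.43 and the upstream kinase gene dlk-1 by 2.35. The mitophagy receptor gene dct-1 stood at 14.5, 14.9 and 15.04 TPM against 113 and 106 TPM (log2 change 2.80, SE 0.13, adjusted p = 1.4e-06). Its list of mitochondrial fusion, fission and mitophagy genes was mixed, with 5 higher and 8 lower of 17 and a median of -0.05.

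Yolk, eggshell and uterine genes fell close to 0. All 6 yolk protein (vitellogenin) genes were lower, with a median of -10.57. Their summed level was 7253, 20964 and 24122 TPM in controls 1, 2 and 3 and 15.3 and 9.17 TPM in atp-2 RNAi. Control replicate 1 was the low control and still lay far above both treated libraries. In the single controls of 24, 36 and 48 hr the sum was 0.629, 0.860 and 1888 TPM. The yolk receptor gene rme-2, which oocytes use to take yolk up, stood at 430.4, 897 and 813 TPM in controls and 0.964 and 2.03 TPM in atp-2 RNAi (log2 change -8.12, SE 0.33, adjusted p = 9.4e-07). Among the 10 yolk receptor and regulator genes tested, rme-2 was the only lower gene and 7 were higher. The intestinal GATA factor gene elt-2 stood at 10.01, 8.72 and 6.75 TPM against 38.8 and 53.1 TPM (log2 change 2.305, SE 0.22, adjusted p = 2.6e-05). Of 17 eggshell genes, 16 were lower and 1 higher, with a median of -6.92. The chondroitin proteoglycan gene cpg-2 stood at 3401, 3469 and 3297 TPM in controls and 6.54 and 11.19 TPM in atp-2 RNAi (log2 change -8.47, SE 0.20, adjusted p = 1.6e-07). The chitin synthase gene chs-1 stood at 300.0, 279.6 and 249.7 TPM against 1.06 and 1.84 TPM (log2 change -6.84, SE 0.18, adjusted p = 1.9e-07). No eggshell gene named here overlapped between groups. All 5 uterine secreted protein genes were lower, with ule-3 at 732, 747 and 711 TPM in controls against 0.561 and 0.860 TPM in atp-2 RNAi (log2 change -8.74, SE 0.14, adjusted p = 8.5e-08).

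RNA regulators of the oocyte and early embryo fell as a group. All 22 tested were lower, with a median of -5.91 and a range of -8.55 to -0.64. The Y-box RNA-binding protein gene cey-2 was one of the most abundant RNAs of the controls, at 4799.5, 4045 and 3982 TPM, and stood at 22.3 and 37.3 TPM in atp-2 RNAi (log2 change -7.16, SE 0.22, adjusted p = 3.1e-07). The Pumilio family gene puf-5, which acts in late oogenesis, stood at 717, 725 and 663 TPM against 0.753 and 0.992 TPM (log2 change -8.55, SE 0.13, adjusted p = 8.5e-08). Both were low in each treated library. The zinc finger gene oma-1, needed for oocyte maturation, stood at 458, 422 and 389.7 TPM against 1.95 and 3.52 TPM (log2 change -6.86, SE 0.20, adjusted p = 2.7e-07). The embryonic cell fate regulator gene pos-1 stood at 1060.1, 992 and 943 TPM against 2.21 and 3.79 TPM (log2 change -7.99, SE 0.18, adjusted p = 1.6e-07). In this list 7 of 22 genes were at least 2-fold lower in control replicate 1 than in the other controls, and the treated libraries lay below that library too.

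Germline genes of earlier steps fell as well, with smaller median falls than the oocyte genes. Of 21 genes of the germline stem cell and GLP-1 list, 20 were lower, with a median of -2.72. The Notch receptor gene glp-1, which keeps germline stem cells dividing, stood at 179, 160.0 and 152 TPM in controls and 5.65 and 11.9 TPM in atp-2 RNAi (log2 change -4.15, SE 0.27, adjusted p = 4.2e-06). Of 30 meiotic chromosome genes, 29 were lower and 0 higher, with a median of -3.75. The synaptonemal complex gene syp-1 stood at 92.8, 80.9 and 79.6 TPM against 8.65 and 19.4 TPM (log2 change -2.60, SE 0.29, adjusted p = 7.2e-05), and spo-11, which makes the meiotic DNA breaks, at 84.2, 73.1 and 64.5 TPM against 1.49 and 3.31 TPM (log2 change -4.51, SE 0.25, adjusted p = 2.5e-06). All 21 germ granule genes were lower, with a median of -3.70. The granule helicase gene glh-1 kept 47.2 and 78.4 TPM in atp-2 RNAi against 446, 486 and 376 TPM in controls (log2 change -2.81, SE 0.22, adjusted p = 1.1e-05). By contrast meg-1, a granule gene of the early embryo, stood at 0.121 and 0.0895 TPM against 236, 227 and 221 TPM (log2 change -7.70, SE 0.14, adjusted p = 8.5e-08).

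Genes of the RNA interference machinery itself were mostly lower. Of 19 Argonaute genes tested, 16 were lower and 2 higher, with a median of -2.69. The germline Argonaute gene wago-1 stood at 744, 721 and 646 TPM in controls and 15.04 and 24.3 TPM in atp-2 RNAi (log2 change -5.13, SE 0.20, adjusted p = 7.8e-07), and the microRNA Argonaute gene alg-1 at 12.7, 21.6 and 20.1 TPM and 41.5 and 62.6 TPM (log2 change 1.47, SE 0.27, adjusted p = 0.0011). Of 22 genes for uptake and amplification, 18 were lower and 4 higher. The double-stranded RNA channel gene sid-1 stood at 79.1, 70.8 and 78.9 TPM in controls and 5.04 and 10.1 TPM in atp-2 RNAi (log2 change -3.24, SE 0.25, adjusted p = 9.7e-06). In the other direction sid-2, which takes RNA up from the gut, stood at 15.7, 14.3 and 18.7 TPM and 42.6 and 59.5 TPM (log2 change 1.58, SE 0.20, adjusted p = 0.00013). The Dicer gene dcr-1 stood at 88.8, 78.6 and 75.7 TPM against 14.19 and 22.01 TPM (log2 change -2.13, SE 0.20, adjusted p = 2.5e-05), and its double-stranded RNA-binding partner rde-4 at 325, 271 and 259 TPM against 23.3 and 37.1 TPM (log2 change -3.23, SE 0.21, adjusted p = 4.3e-06). The fall of dcr-1 was larger than at 0 hr (difference -1.16, adjusted p = 0.0092, limma interaction term), and 13 of the 22 genes of this list had a lower change at 20 hr than at 0 hr by that test (22.7% of all genes).

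Sperm RNA was scarce in both groups. Only 3 of 35 major sperm protein genes in the table reached a mean of 1 TPM. The higher genes among them, msp-57 and msp-59, reached it only through the atp-2 RNAi libraries, so their direction was fixed by that minimum. Major sperm proteins drive the crawling of nematode sperm, and msp-59 stood at 0.0479, 0 and 0.0847 TPM in controls and 1.64 and 3.83 TPM in atp-2 RNAi (log2 change 1.77, SE 0.26, adjusted p = 0.00033). Of 13 of 62 other sperm genes tested, 3 were higher and 7 lower (median -0.86), and with no filter on low values 20 were higher and 6 lower of 58 (median 0.33); spe-44, a transcription factor gene of the sperm program, stood at 27.8, 26.1 and 24.8 TPM against 0.723 and 1.57 TPM (log2 change -3.69, SE 0.21, adjusted p = 2.7e-06). Of 21 sex determination genes, 15 were lower and 3 higher. The gene fem-3, which directs sperm fate in the germline, stood at 90.01, 78.9 and 73.5 TPM against 1.197 and 1.91 TPM (log2 change -5.01, SE 0.18, adjusted p = 6.5e-07).

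**Figure D2:**
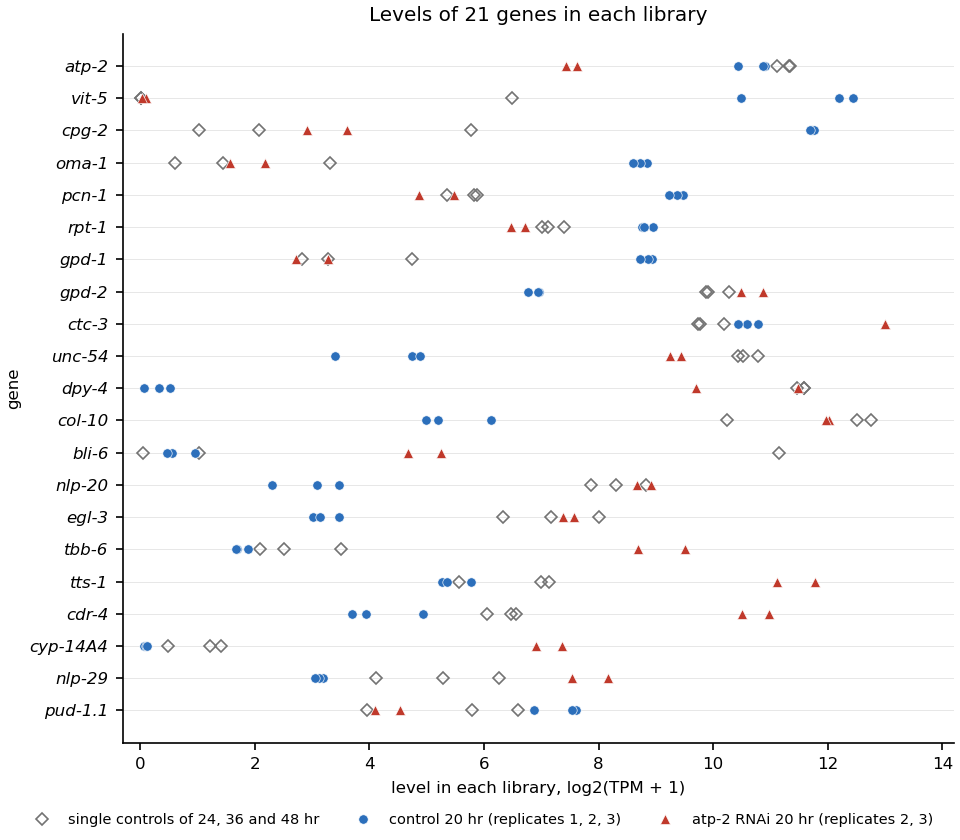
Levels of 21 genes in each library on a log2(TPM + 1) axis. Circles are the 3 controls of 20 hr, triangles the 2 atp-2 RNAi libraries of 20 hr, and open diamonds the single controls of 24, 36 and 48 hr from tables normalized separately. In each row the circles and the triangles do not overlap; for gpd-2, ctc-3, tbb-6, tts-1, cdr-4, cyp-14A4 and nlp-29 the triangles also lie above every diamond.

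Genes for copying DNA and for mitosis fell. All 35 DNA replication genes tested were lower, with a median of -3.36, against -2.12 at 0 hr. The sliding clamp gene pcn-1 stood at 707, 659 and 600.0 TPM in controls and 28.1 and 43.8 TPM in atp-2 RNAi (log2 change -4.18, SE 0.19, adjusted p = 1.3e-06). The replicative helicase gene mcm-7 stood at 255, 413 and 374 TPM against 8.84 and 16.16 TPM (log2 change -4.72, SE 0.28, adjusted p = 3.3e-06). Each treated library lay below each control. The ribonucleotide reductase gene rnr-2, which makes DNA precursors, stood at 560.4, 508 and 457 TPM against 37.3 and 64.4 TPM (log2 change -3.34, SE 0.23, adjusted p = 5.2e-06). Its change at 0 hr was -1.15, and the difference between the times passed (adjusted p = 0.003, limma interaction term). Of 36 cyclin and cell cycle kinase genes, 34 were lower and 1 was higher, with a median of -3.38. Cyclin B3, cyb-3, stood at 971, 980.4 and 956 TPM in controls and 15.8 and 25.13 TPM in atp-2 RNAi (log2 change -5.53, SE 0.19, adjusted p = 4.8e-07). The single rise was of cki-1, an inhibitor of cyclin-dependent kinases, from 2.82, 2.75 and 1.85 TPM to 15.4 and 20.2 TPM (log2 change 2.44, SE 0.22, adjusted p = 1.9e-05).

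Histone genes split, with 40 higher and 25 lower of 70 (median 1.29); above a minimum of 5 TPM in the mean, 12 were higher and 18 lower of 32 (median -0.70). The variant gene htz-1 stood at 1005, 837 and 770.3 TPM in controls and 112 and 126 TPM in atp-2 RNAi (log2 change -2.85, SE 0.15, adjusted p = 1.9e-06), and the germline linker histone gene hil-4 at 349.7, 631 and 548 TPM against 16.06 and 23.9 TPM (log2 change -4.59, SE 0.27, adjusted p = 3.2e-06). Most histone genes exist in near-identical copies, so the way reads were shared among them could move single values. In 15 of the 70 genes atp-2 RNAi replicate 3 was at least 2-fold above replicate 2.

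All 33 proteasome genes tested were lower. This protease degrades ubiquitin-tagged proteins, and the changes of its subunit genes ran from -3.31 to -1.26 with a median of -1.81. The ATPase subunit gene rpt-1 stood at 493, 431 and 441 TPM in controls and 88.1 and 104 TPM in atp-2 RNAi (log2 change -2.24, SE 0.13, adjusted p = 3.0e-06), against 137, 128 and 168 TPM in the single controls of 24, 36 and 48 hr. The catalytic core gene pbs-5 stood at 341, 308 and 309.6 TPM against 131 and 130.1 TPM (log2 change -1.28, SE 0.12, adjusted p = 2.2e-05). Neither gene overlapped between groups. At 0 hr the median was -0.99, and 31 of the 33 genes had a lower change at 20 hr than at 0 hr by the interaction term (22.7% of all genes).

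Genes for RNA processing and for the synthesis of proteins were also mostly lower, apart from those of ribosomal proteins. Of 41 splicing and mRNA processing genes, 39 were lower and 2 higher, with a median of -1.84. The polyadenylation factor gene cpsf-4 stood at 176, 148 and 149.9 TPM against 16.5 and 16.6 TPM (log2 change -3.18, SE 0.14, adjusted p = 1.1e-06), while the poly(A)-binding protein gene pab-2 stood at 12.2, 24.9 and 27.9 TPM against 186 and 198 TPM (log2 change 3.17, SE 0.32, adjusted p = 3.7e-05). Of 32 aminoacyl tRNA synthetase genes 27 were lower, of 38 translation factor genes 27, and of 22 nucleolar genes 15, with medians of -0.97, -0.95 and -1.14. The lysyl tRNA synthetase gene kars-1 stood at 504, 448 and 450.2 TPM in controls and 98.0 and 100.3 TPM in atp-2 RNAi (log2 change -2.22, SE 0.12, adjusted p = 2.1e-06). The nucleolar methyltransferase gene fib-1 stood at 679, 655 and 689.6 TPM against 227 and 244 TPM (log2 change -1.51, SE 0.11, adjusted p = 7.9e-06). Cytosolic ribosomal protein genes had a median of 0.30, near that of all genes, with 33 higher and 3 lower of 82; scaled to a common median 4 were higher and 3 lower, and under quantile normalization 4 were higher and 10 lower with a median of -0.12. Their higher count also moved by over 1.5 times without atp-2 RNAi replicate 2 (15), atp-2 RNAi replicate 3 (55), control 2 (15) and control 3 (21).

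A few pairs of near-duplicate genes moved in opposite directions. The ribosomal protein genes rpl-11.1 and rpl-11.2 encode close copies of 1 protein. In controls rpl-11.1 stood at 2514, 2258 and 2198 TPM and in atp-2 RNAi at 317 and 369 TPM (log2 change -2.76, SE 0.13, adjusted p = 1.3e-06), while rpl-11.2 went from 188, 193 and 190.2 TPM to 2197 and 1654 TPM (log2 change 3.32, SE 0.15, adjusted p = 1.1e-06). The glycolytic enzyme glyceraldehyde 3-phosphate dehydrogenase has 4 genes. Of these gpd-1 stood at 487, 467 and 421 TPM in controls and 5.58 and 8.72 TPM in atp-2 RNAi (log2 change -5.84, SE 0.19, adjusted p = 3.7e-07), and gpd-4 changed by -5.80. The other pair rose, gpd-2 from 108, 124.3 and 122 TPM to 1862 and 1440.0 TPM (log2 change 3.78, SE 0.15, adjusted p = 8.1e-07) and gpd-3 with a change of 3.42. Reads of such copies can be shared in counting, which was done before deposit, so the split within a pair is less certain than the sum. The translation elongation factor gene eef-1A.2 rose from 43.2, 131 and 142 TPM to 1601 and 1528 TPM (log2 change 4.06, SE 0.47, adjusted p = 7.9e-05).

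Most collagen genes of the cuticle rose, several of them from below 3 TPM to levels above 100 TPM. Of 111 col collagen genes tested, of 159 in the table, 88 were higher and 19 lower, with a median of 4.01. Their summed level was 11008, 12026 and 13829.5 TPM in controls 1, 2 and 3 and 71510.4 and 69582 TPM in atp-2 RNAi. The most abundant of those named, col-3, stood at 59.9, 74.4 and 32.3 TPM in controls and 7261 and 5947 TPM in atp-2 RNAi (log2 change 6.94, SE 0.32, adjusted p = 1.3e-06). For col-10 the levels were 35.6, 68.7 and 30.9 TPM and 4176 and 4013 TPM (log2 change 6.56, SE 0.31, adjusted p = 1.3e-06), and for col-125 0.986, 2.04 and 2.15 TPM and 2343 and 4196 TPM (log2 change 10.20, SE 0.30, adjusted p = 2.7e-07). All 3 genes were high in both treated libraries, and the single control of 48 hr had less of each than that of 24 hr. Of 19 collagen genes whose mutants have an altered body shape, 17 were higher and 2 lower, with a median of 6.21. The gene dpy-4 stood at 0.0454, 0.431 and 0.256 TPM in controls, and at 835 and 2850.1 TPM in atp-2 RNAi replicates 2 and 3 (log2 change 10.29, SE 0.46, adjusted p = 1.2e-06). Replicate 3 was at least 2-fold above replicate 2 for 16 of these 19 genes, and both lay above all controls for dpy-4. For rol-6 the levels were 0, 0.0454 and 0 TPM and 226 and 809.9 TPM (log2 change 8.72, SE 0.47, adjusted p = 2.1e-06).

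Late collagen genes, known from the last larval stage and the adult, split. The adult cuticle collagen gene col-19 stood at 317, 265 and 389.6 TPM in controls and 4.94 and 17.3 TPM in atp-2 RNAi (log2 change -4.94, SE 0.43, adjusted p = 1.7e-05). The adult collagen gene col-119 stood at 1154, 1103 and 1406 TPM against 4.15 and 15.3 TPM (log2 change -7.05, SE 0.42, adjusted p = 3.3e-06). These were the 2 falls among 8 late collagen genes tested, and 6 were higher. Of the higher, bli-6 stood at 0.476, 0.383 and 0.933 TPM in controls and 24.4 and 36.97 TPM in atp-2 RNAi (log2 change 4.30, SE 0.25, adjusted p = 2.7e-06), against 0.0400, 1.05 and 2279 TPM in the single controls of 24, 36 and 48 hr. A further member, rol-1, was listed at 0 in all 3 controls and stood at 7.21 and 13.8 TPM in atp-2 RNAi. Only through the atp-2 RNAi libraries did bli-6 and rol-1 reach a mean of 1 TPM, so neither could count as lower. Both rises were to levels well below the 48 hr control, where rol-1 had a level of 1624 TPM.

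Molting genes rose. Of 32 genes of the molting and apical matrix list, 30 were higher and 2 lower, with a median of 2.93 against 4.40 at 0 hr, and 10 had a lower change at 20 hr than at 0 hr by the interaction term (22.7% of all genes). The matrix protein gene noah-1 stood at 2.28, 3.02 and 1.43 TPM in controls and 24.5 and 112 TPM in atp-2 RNAi (log2 change 4.08, SE 0.56, adjusted p = 0.00023). The gene mlt-8, named for its molting defect, stood at 2.25, 2.40 and 2.26 TPM against 77.3 and 223 TPM (log2 change 5.32, SE 0.39, adjusted p = 7.7e-06). Replicate 3 was the higher of the treated libraries in both, and at least 2-fold above replicate 2 in 20 of 32 genes. Hedgehog-related and patched-related genes, which C. elegans uses in the epidermis and its apical matrix, counted 50 higher and 3 lower of 55. Among these grl-16 stood at 0, 0.0614 and 0.126 TPM against 252 and 611 TPM (log2 change 8.53, SE 0.34, adjusted p = 8.9e-07). The cuticlin gene cut-2 stood at 0.0359, 0.228 and 0.327 TPM against 232 and 486 TPM (log2 change 8.14, SE 0.31, adjusted p = 7.4e-07).

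Genes that time larval stages differed as well. Of 15 heterochronic genes tested, 11 were higher and 2 lower. The cyclically expressed period homolog lin-42 stood at 1.11, 4.47 and 4.20 TPM in controls and 52.1 and 273 TPM in atp-2 RNAi (log2 change 4.95, SE 0.69, adjusted p = 0.00025). The early fate gene lin-14 stood at 11.9, 10.97 and 4.86 TPM against 60.1 and 74.3 TPM (log2 change 2.81, SE 0.34, adjusted p = 0.00011), and lin-29, the zinc finger gene of the larva to adult switch, at 2.08, 2.097 and 1.43 TPM against 23.1 and 32.2 TPM (log2 change 3.31, SE 0.22, adjusted p = 4.6e-06). In the other direction lin-28, an RNA-binding protein gene of early larval fates, stood at 106, 96.8 and 86.6 TPM against 21.6 and 25.8 TPM (log2 change -1.98, SE 0.15, adjusted p = 9.3e-06). Only lin-28 of these 4 genes was high in the controls.

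Muscle genes rose more at 20 hr than at 0 hr. Of 36 body wall muscle genes, 34 were higher and 2 lower, with a median of 2.64 against 0.69 at 0 hr, and 27 had a higher change at 20 hr by the interaction term (18.0% of all genes). The myosin heavy chain gene unc-54 stood at 9.51, 25.7 and 28.6 TPM in controls and 609.7 and 691 TPM in atp-2 RNAi (log2 change 5.004, SE 0.41, adjusted p = 1.3e-05). For the muscle regulator hlh-1, the MyoD homolog, the levels were 0.624, 0.614 and 0.401 TPM and 11.9 and 12.2 TPM (log2 change 3.08, SE 0.17, adjusted p = 2.5e-06). Control replicate 1 was at least 2-fold below the other controls for 9 of the 36 genes, unc-54 among them, and for unc-54 all controls lay below the treated libraries. Summed over the list the level was 3092, 5584 and 5660.3 TPM in controls and 14837 and 13483 TPM in atp-2 RNAi. Of 12 pharynx genes, 10 were higher and 2 lower, and the pharyngeal organ identity gene pha-4 stood at 1.31, 2.24 and 5.72 TPM against 26.7 and 33.4 TPM (log2 change 3.06, SE 0.41, adjusted p = 0.0002). Of 26 intestine genes, 21 were higher and 1 was lower. The intestinal intermediate filament gene ifb-2 stood at 71.1, 62.6 and 57.9 TPM against 540.4 and 437 TPM (log2 change 2.91, SE 0.15, adjusted p = 1.9e-06), and the brush border actin gene act-5 at 288, 402 and 545 TPM against 1933 and 1533 TPM (log2 change 2.11, SE 0.26, adjusted p = 0.00011).

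Neuropeptide genes rose, both those of the FMRFamide-like family and others. Of 29 flp genes tested 26 were higher and 1 lower, and of 53 other neuropeptide-like genes 48 and 3, with medians of 2.63 and 3.04. The gene flp-15 stood at 3.64, 2.51 and 1.45 TPM in controls and 153 and 107 TPM in atp-2 RNAi (log2 change 5.24, SE 0.29, adjusted p = 2.5e-06). The level of nlp-20 was 10.04, 7.53 and 3.91 TPM in controls and 483 and 407 TPM in atp-2 RNAi (log2 change 5.85, SE 0.32, adjusted p = 2.3e-06), and that of nlp-12, a cholecystokinin-like peptide gene that tunes locomotion, 5.66, 3.44 and 3.66 TPM and 292 and 186 TPM (log2 change 5.50, SE 0.26, adjusted p = 1.3e-06). Each was high in both treated libraries. Peptides are cut and packed by dense-core vesicle proteins, whose list counted 15 higher and 3 lower of 19. The proprotein convertase gene egl-3 stood at 7.13, 10.1 and 7.85 TPM against 189 and 166 TPM (log2 change 4.26, SE 0.18, adjusted p = 9.8e-07), and the vesicle membrane gene ida-1 at 3.22, 4.58 and 4.24 TPM against 189 and 173 TPM (log2 change 5.19, SE 0.18, adjusted p = 4.7e-07).

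Genes of fast transmission and excitability rose from low levels. All 13 GABA genes tested were higher, with a median of 2.56, and unc-25, which makes GABA, stood at 4.27, 3.34 and 2.95 TPM in controls and 27.99 and 26.7 TPM in atp-2 RNAi (log2 change 2.66, SE 0.19, adjusted p = 6.3e-06). Acetylcholine genes counted 29 higher and 1 lower of 32, and under quantile normalization 24 and 4. The acetylcholinesterase gene ace-2 stood at 3.47, 2.73 and 2.05 TPM against 33.3 and 37.3 TPM (log2 change 3.29, SE 0.21, adjusted p = 4.0e-06). Of 49 potassium channel genes 48 were higher and 0 lower, with a median of 1.86. Summed over all 72 potassium channel genes listed, the level was only 99.6, 85.4 and 77.8 TPM in controls, against 482 and 539 TPM. Members that reached a mean of 1 TPM only through the atp-2 RNAi libraries could not count as lower. Synaptic vesicle release genes were higher for 22 and lower for 5 of 33, and the synaptotagmin gene snt-1, the calcium sensor of release, stood at 2.86, 2.09 and 1.403 TPM against 16.3 and 20.1 TPM (log2 change 2.64, SE 0.24, adjusted p = 2.2e-05). Of 16 touch receptor neuron genes 15 were higher, among them the beta tubulin gene mec-7 at 9.28, 5.18 and 3.17 TPM against 69.5 and 51.6 TPM (log2 change 3.24, SE 0.36, adjusted p = 6.5e-05). Under quantile normalization glutamate genes went from 16 higher and 1 lower to 7 and 3, neuropeptide receptor genes from 32 and 3 to 16 and 9, and sensory cilia genes from 15 and 5 to 9 and 9. With a mean of at least 5 TPM, 4 sensory cilia genes were higher and 5 lower of 10, with a median of -0.37. At that minimum acetylcholine genes counted 5 higher and 1 lower of 7, glutamate genes 4 and 1 of 5, and neuropeptide receptor genes 2 and 1 of 4. With no filter on low values the same lists counted 41 and 1 of 51, 25 and 1 of 30, and 65 and 6 of 98.

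Learning and memory genes, the subject of the study's stated aim, were mixed. Of 44 tested, 30 were higher and 10 lower, with a median of 1.56. The calcium and calmodulin-dependent kinase genes unc-43 and cmk-1 both rose. For unc-43 the levels were 40.8, 37.2 and 38.01 TPM and 168 and 153 TPM (log2 change 2.02, SE 0.13, adjusted p = 3.9e-06), and for cmk-1 0.544, 1.48 and 0.716 TPM and 16.5 and 20.4 TPM (log2 change 3.37, SE 0.25, adjusted p = 7.3e-06). The calsyntenin gene casy-1, needed for associative learning, stood at 8.54, 9.83 and 11.7 TPM in controls and 46.3 and 47.7 TPM in atp-2 RNAi (log2 change 2.13, SE 0.17, adjusted p = 1.2e-05). The ubiquitin ligase gene fsn-1 fell, from 139, 128 and 117 TPM to 7.75 and 8.32 TPM (log2 change -3.84, SE 0.14, adjusted p = 6.3e-07). In the single controls of 24, 36 and 48 hr casy-1 stood at 116, 49.4 and 18.1 TPM and fsn-1 at 11.13, 6.76 and 8.72 TPM. Of 1629 chemoreceptor genes 32 were tested, so most receptors of sensory neurons were too low in whole-worm RNA to compare.

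**Figure D3:**
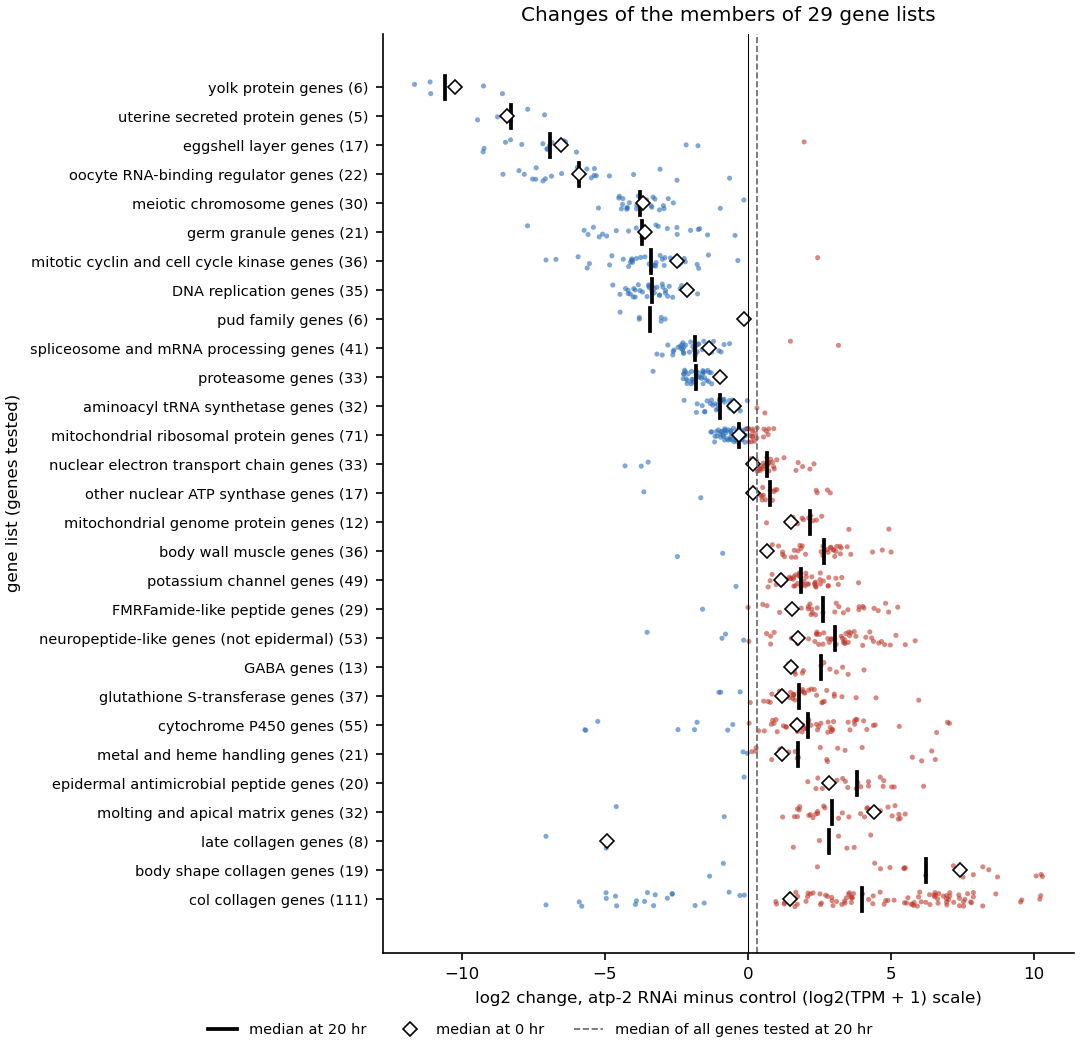
Each point is the log2 change of 1 gene at 20 hr, in 29 gene lists with the number of genes tested in parentheses. Black bars are list medians at 20 hr, diamonds list medians at 0 hr, and the dashed line is the median of all genes tested (0.31). Medians run from -10.57 for yolk protein genes to 6.21 for body shape collagens; the diamonds of the pud family and of late collagens lie far from their bars, and the median of the mitochondrial ribosomal protein genes turns positive under quantile normalization.

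Detoxification genes rose broadly. Cytochrome P450 enzymes oxidize foreign compounds, and 45 of 55 tested were higher and 6 lower, with a median of 2.11. UDP-glucuronosyltransferases and glutathione S-transferases attach sugars and glutathione to them, and 44 of 55 and 33 of 37 were higher. The gene cyp-33C8 stood at 4.98, 3.06 and 9.57 TPM in controls and 872 and 735 TPM in atp-2 RNAi (log2 change 6.98, SE 0.36, adjusted p = 1.9e-06), and cyp-13A8 at 0.327, 0.0785 and 0.352 TPM and 107 and 133 TPM (log2 change 6.60, SE 0.20, adjusted p = 3.0e-07). The transferase genes ugt-19 and gst-14 were also low in every control. For ugt-19 the levels were 7.32, 5.82 and 8.93 TPM and 566 and 519 TPM (log2 change 6.04, SE 0.18, adjusted p = 3.1e-07), and for gst-14 0.169, 0.0912 and 0.214 TPM and 78.0 and 65.8 TPM (log2 change 5.97, SE 0.18, adjusted p = 2.8e-07). The single controls had 16.3, 22.7 and 35.3 TPM of ugt-19 and 4.85, 1.198 and 0.111 TPM of gst-14. Of 182 nuclear hormone receptor genes, a large family of ligand-bound transcription factors in the worm, 151 were higher and 16 lower; nhr-115 stood at 1.23, 1.14 and 1.197 TPM against 43.02 and 42.0 TPM (log2 change 4.31, SE 0.16, adjusted p = 6.9e-07). The xenobiotic pump gene pgp-9 stood at 3.096, 7.56 and 9.82 TPM against 494 and 380.2 TPM (log2 change 5.91, SE 0.38, adjusted p = 4.4e-06).

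Metal and heme genes rose, with 16 of 21 higher and 0 lower. The cadmium-responsive gene cdr-4 stood at 14.4, 11.9 and 29.4 TPM in controls and 2018 and 1444 TPM in atp-2 RNAi (log2 change 6.55, SE 0.35, adjusted p = 2.2e-06). Ferritin, ftn-1, which stores iron, stood at 0.687, 0.439 and 2.12 TPM against 221 and 127 TPM (log2 change 6.43, SE 0.37, adjusted p = 2.8e-06). The heme-responsive gene hrg-2 stood at 7.57, 6.63 and 5.82 TPM against 511 and 516 TPM (log2 change 6.07, SE 0.15, adjusted p = 1.7e-07). All 3 genes were at least 2-fold higher in each treated library than in the single controls, where cdr-4 stood at 65.4, 87.6 and 93.7 TPM, ftn-1 at 8.95, 18.6 and 2.81 TPM and hrg-2 at 17.03, 73.6 and 37.8 TPM. Of 14 hypoxia and hydrogen sulfide response genes 11 were higher and 1 lower, among them cysl-2, a cyanoalanine synthase gene, at 24.7, 20.9 and 22.3 TPM against 208 and 195 TPM (log2 change 3.103, SE 0.14, adjusted p = 1.1e-06). The mitochondrial superoxide dismutase gene sod-3 stood at 1.13, 0.6005 and 0.981 TPM against 11.795 and 17.4 TPM (log2 change 3.02, SE 0.23, adjusted p = 8.8e-06), while its whole list of superoxide dismutase, catalase and peroxiredoxin genes counted 10 higher and 7 lower of 21, and under quantile normalization 14 and 4.

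Defense genes of the epidermis rose. Of 20 epidermal antimicrobial peptide genes 19 were higher and 0 lower, with a median of 3.82. The gene nlp-29, an antimicrobial peptide gene induced by wounding and fungal infection, stood at 8.13, 7.72 and 7.28 TPM in controls and 287 and 184 TPM in atp-2 RNAi (log2 change 4.73, SE 0.20, adjusted p = 1.1e-06), against 75.8, 38.1 and 16.3 TPM in the single controls. For nlp-34 the levels were 0.376, 0.871 and 1.22 TPM and 187 and 83.8 TPM (log2 change 6.14, SE 0.36, adjusted p = 2.9e-06). Both genes were low in all controls of 20 hr. Of 20 pals genes, a family known from the response to intracellular pathogens, 19 were higher and 0 lower. Of 14 intestinal pathogen response genes 11 were higher, among them irg-4 at 1.83, 1.96 and 1.33 TPM against 148 and 74.5 TPM (log2 change 5.30, SE 0.29, adjusted p = 2.4e-06). The single fall was of T24B8.5, a reporter gene of the PMK-1 p38 pathway, from 22.1, 25.8 and 13.05 TPM to 0.191 and 0.112 TPM (log2 change -4.16, SE 0.28, adjusted p = 5.5e-06). C-type lectins counted 44 higher and 18 lower of 75; clec-87, whose RNA stood at 1764, 1693 and 1565 TPM in controls, was at 2.90 and 4.75 TPM in atp-2 RNAi (log2 change -8.47, SE 0.18, adjusted p = 1.2e-07).

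Chaperone genes outside mitochondria moved in both directions. Of 22 small heat shock and HSP70 genes 10 were higher and 6 lower, and without atp-2 RNAi replicate 2 only 5 were higher. The small heat shock gene sip-1, known from oocytes and embryos, stood at 2941, 2698 and 2447 TPM in controls and 82.3 and 107 TPM in atp-2 RNAi (log2 change -4.83, SE 0.15, adjusted p = 3.7e-07), and hsp-17 at 20.3, 17.02 and 42.2 TPM against 357 and 197 TPM (log2 change 3.38, SE 0.40, adjusted p = 9.1e-05). The endoplasmic reticulum HSP70 gene hsp-4 stood at 472, 429 and 442 TPM against 105 and 167 TPM (log2 change -1.75, SE 0.20, adjusted p = 6.7e-05). Its list of endoplasmic reticulum stress genes counted 7 higher and 9 lower of 18, and leaving out 1 library at a time gave 2 to 6 higher, with 2 without atp-2 RNAi replicate 3. The autophagy receptor gene sqst-1 stood at 36.8, 33.7 and 44.9 TPM against 466 and 482 TPM (log2 change 3.599, SE 0.15, adjusted p = 9.9e-07), in a list with 8 higher and 13 lower of 28, or 12 and 10 under quantile normalization.

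Central metabolism had single genes with large changes in lists that were otherwise mixed. Glycolysis and gluconeogenesis genes counted 10 higher and 6 lower of 22, and TCA and glyoxylate cycle genes 9 and 7 of 24. The aldolase gene aldo-1 stood at 21.2, 33.95 and 27.9 TPM in controls and 1252 and 874 TPM in atp-2 RNAi (log2 change 5.21, SE 0.23, adjusted p = 1.1e-06), and the lactate dehydrogenase gene ldh-1 at 41.4, 39.0 and 38.3 TPM against 342 and 185 TPM (log2 change 2.64, SE 0.24, adjusted p = 2.4e-05). The gene icl-1 encodes the glyoxylate cycle enzyme that lets worms make sugar from fat. It stood at 8.13, 24.9 and 40.6 TPM against 1268 and 1351 TPM (log2 change 5.93, SE 0.55, adjusted p = 2.4e-05). Fatty acid oxidation genes counted 17 higher and 15 lower of 41, with the acyl-CoA synthetase gene acs-2 at 3.96, 4.45 and 7.32 TPM against 423 and 357 TPM (log2 change 6.002, SE 0.24, adjusted p = 8.4e-07). Fatty acid synthesis and desaturase genes counted 11 higher and 4 lower of 22, with a median of 0.54. The largest fall of that list was of the delta-9 desaturase gene fat-7. It stood at 6.81, 5.399 and 4.54 TPM in controls and 0 and 0.130 TPM in atp-2 RNAi (log2 change -2.62, SE 0.20, adjusted p = 1.0e-05). Of the 5 genes whose levels are given here only fat-7 was lower.

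Growth signaling genes moved in both directions, beside 47.7% higher and 40.7% lower among all genes. AMPK and TOR genes counted 7 higher and 12 lower of 20, and genes from the insulin receptor to DAF-16 4 and 6 of 12, or 7 and 5 under quantile normalization. The PI3 kinase gene age-1, which acts below the insulin receptor, stood at 64.5, 60.6 and 61.3 TPM in controls and 7.42 and 10.8 TPM in atp-2 RNAi (log2 change -2.66, SE 0.18, adjusted p = 5.0e-06). Of 40 insulin-like peptide genes 7 were tested, with 6 higher and 1 lower, and ins-27 stood at 1.42, 1.49 and 1.29 TPM against 51.3 and 65.7 TPM (log2 change 4.62, SE 0.18, adjusted p = 8.1e-07). The helix-loop-helix factor gene hlh-30, a regulator of autophagy and lysosome genes, stood at 7.26, 16.8 and 19.9 TPM against 153 and 189 TPM (log2 change 3.55, SE 0.37, adjusted p = 4.7e-05). Lysosomal protease and vacuolar ATPase genes counted 30 higher and 4 lower of 41, with the aspartic protease gene asp-8 at 5.91, 4.603 and 4.499 TPM against 609 and 326 TPM (log2 change 6.22, SE 0.27, adjusted p = 1.0e-06).

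The long noncoding RNA tts-1 was among the most abundant rises. It is known to bind ribosomes in long-lived mutants, and it stood at 37.6, 39.8 and 53.6 TPM in controls and 3521 and 2204 TPM in atp-2 RNAi (log2 change 5.98, SE 0.23, adjusted p = 8.0e-07). The single controls had 126, 139 and 46.5 TPM. Of 36 long noncoding genes tested 24 were higher and 8 lower, or 14 and 13 under quantile normalization. The starvation-induced noncoding RNA rncs-1 stood at 1.29, 1.101 and 1.29 TPM against 65.8 and 35.4 TPM (log2 change 4.47, SE 0.27, adjusted p = 3.1e-06).

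The 20 hr changes were counted by direction and by size, in counts that can overlap, beside the single control libraries of 24, 36 and 48 hr. These libraries come from tables normalized separately, so levels are set beside each other with no test. Of the 6158 higher genes, 4943 (80.3%) had all 3 single controls above all 3 controls of 20 hr, and of the 5253 lower genes 4934 (93.9%) had all 3 below. Both atp-2 RNAi libraries were at least 2-fold above the highest single control for 788 genes (12.796% of the higher), and at least 8-fold above for 71 (1.15%). Muscle, molting and body shape collagen genes had no member among the 788. In contrast the 788 held 22 of the 45 higher cytochrome P450 genes and 10 of the 19 higher epidermal antimicrobial peptide genes. They also held 8 of the 19 higher pals genes and 6 of the 16 higher metal and heme genes. Many genes of these lists entered the first count too. All 3 single controls lay above all 3 controls of 20 hr for 28 of the 45 cytochrome P450 genes. The same held for 13 of the 19 epidermal peptide genes, 8 of the 19 pals genes and 13 of the 16 metal and heme genes. The 788 also held 11 of 12 protein genes of mitochondrial DNA, but the controls of the separate tables differed in these genes, and that difference and this count cannot be told apart: their summed level was 11975, 10335 and 9636 TPM in controls of 20 hr and 5200.2, 4576 and 7144 TPM in the single controls of 24, 36 and 48 hr. Among them nduo-3 stood at 719.8 and 809 TPM in atp-2 RNAi and 175, 171 and 150.1 TPM in controls of 20 hr, but at 0.398, 0.130 and 0.470 TPM in the single controls and 2.75, 4.09 and 8.54 TPM in the single atp-2 RNAi libraries of 24, 36 and 54 hr. Of the 788 genes, 93 (11.802%) were also at least 2-fold above every single control in all 3 single atp-2 RNAi libraries. Only 34 lower genes (0.647%) were at least 2-fold below every single control, atp-2 among them.

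**Figure D4:**
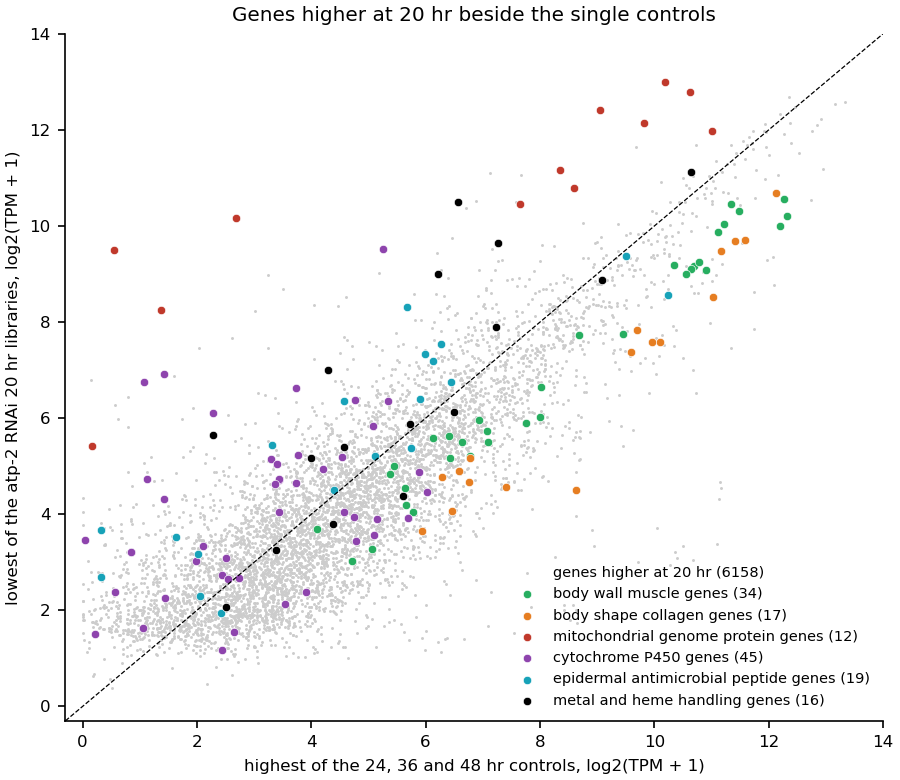
Each point is 1 of the 6158 genes higher in atp-2 RNAi at 20 hr, with the highest of the single controls of 24, 36 and 48 hr on the x axis and the lowest of the 2 atp-2 RNAi libraries of 20 hr on the y axis, both as log2(TPM + 1). Body wall muscle and body shape collagen genes lie below the dashed line of equal level, and mitochondrial genome genes above it, with 11 of 12 at least 2-fold above; the last also differed in level between the tables' controls.

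The changes at 20 hr largely repeated those at 0 hr in direction. The 0 hr groups are 3 control and 2 atp-2 RNAi libraries from another table, each change was taken within its own table, and the comparison shares no library with the one above. Of 9745 genes past the threshold at both times, 5177 were higher at both, 4370 lower at both, and 154 and 44 differed in sign, higher and lower at 20 hr. In an interaction test over the 10 libraries, 5175 of 12720 genes differed between the times (40.7%), 2287 with a higher change at 20 hr (18.0%) and 2888 with a lower one (22.7%). Leaving out 1 library at a time moved the lower count from 2888 to between 1236 and 3291, so that count depends on single libraries. The lowest value came without atp-2 RNAi 0 hr replicate 2, and the count also moved by over 1.5 times without atp-2 RNAi 0 hr replicate 3 (1775), atp-2 RNAi 20 hr replicate 2 (1387), control 0 hr replicate 2 (1723) and control 20 hr replicate 2 (1824).

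The pud family fell at 20 hr and not at 0 hr. These small genes of unknown biochemical function are known to be more abundant under low DAF-2 insulin signaling. All 6 were lower at 20 hr, with a median of -3.41, against -0.12 at 0 hr. The gene pud-2.1 stood at 171, 168 and 112 TPM in controls of 20 hr and 7.87 and 12.01 TPM in atp-2 RNAi (log2 change -3.79, SE 0.24, adjusted p = 4.2e-06). At 0 hr its change was -0.09, and the difference of -3.70 passed (adjusted p = 0.00025, limma interaction term). In the single controls of 24, 36 and 48 hr it stood at 14.4, 65.9 and 40.4 TPM. Several pud genes are near-identical copies, so their values are not independent.

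**Figure D5:**
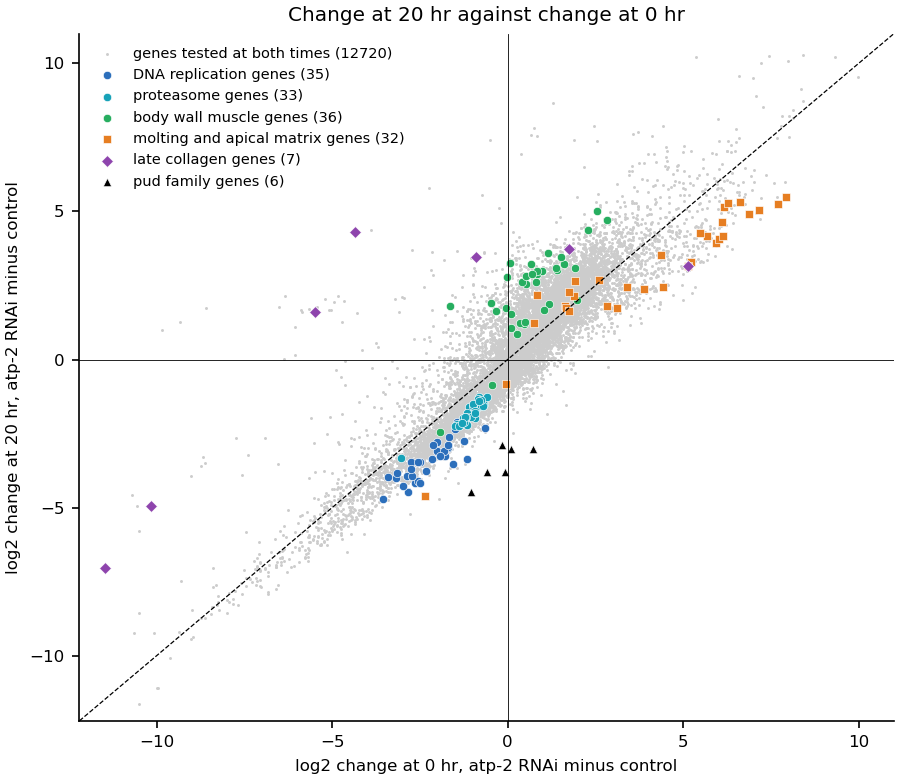
Each point is 1 of 12720 genes tested at both times, with the log2 change at 0 hr on the x axis and at 20 hr on the y axis, and the dashed line marks equal changes. Proteasome, DNA replication and pud genes lie below the line, most body wall muscle genes above it, and late collagens far above it where their 0 hr change was negative.

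The share of higher and lower genes differed along the genome. On chromosome X 1283 of 1914 genes were higher and 351 lower, with a median change of 1.35, and on V 1499 of 2557 genes were higher and 813 lower, with a median change of 1.26. On I 683 of 2093 genes were higher and 1150 lower, with a median change of -0.69, and on III 739 of 2057 genes were higher and 1060 lower, with a median change of -0.50. Chromosomes II and IV had medians of -0.01 and 0.04. As background, genes expressed in the germline are known to be scarce on the X chromosome. By gene type, 102 of 316 pseudogenes were higher and 174 lower, against 5929 and 5033 of 12395 protein-coding genes. In the authors' deposited table, with its own ratios and q-values, 10682 of the 11411 genes that passed here had a q-value below 0.05 and the same sign, and the log2 ratio of atp-2 was -3.22.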

How the data were processed

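RNA of whole worms was sequenced from a strand-specific kit, per the labels' protocols, and bcl2fastq 2.20, TopHat, Cufflinks and build WBcel235 are named in the submitters' processing notes. The values are TPM per gene, deposited by the authors with 0.0001 in place of 0, and read as 0 here. Read counts, the TPM program, the annotation release and the strand setting were not given in the sources used here, so depth is unknown and no counting interval was formed. The log2 ratios, p-values and q-values of the authors' deposited table were used for 1 comparison only. Tables of 0 hr, 20 hr and each later time were normalized separately.

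Genes averaging 1 TPM or more in the 20 hr table entered the test, in which log2(TPM + 1) was compared with limma 3.58.1 (R 4.3.3, intensity trend, two-sided, Benjamini-Hochberg threshold of 0.05 over all genes tested), and checked on simulated data. The difference between 20 hr and 0 hr was an interaction term over 10 libraries. Higher or lower means past the threshold. The members and the 100 gene lists, written by name from textbook knowledge, were chosen with earlier results of these data known, and 11 gene symbols were turned into dates in the tables and not matched. Named genes were taken from atp-2, the 15 largest changes and 10 largest TPM differences per direction, key members and the 3 largest changes of each list, the 8 largest differences between times per direction with those of opposite sign, and the 5 largest changes per direction among sequence names. Genes outside this rule are F59B1.10, C47E8.3, msp-53, C44H4.6 the neighbours of atp-2 and nduo-3, chosen after its values were seen, and those that the text says were picked by their values. Other settings tried were the pseudocount, the filter on low values, the scaling, the replicate block, 1 fit of all 10 libraries, no intensity trend, a 2-fold minimum and leaving out each library.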

Additional observations from a re-analysis of the deposited data

Results flagged for a closer look

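The test of the difference between the changes at 20 hr and at 0 hr (limma interaction term over 10 libraries) singled out 2287 genes with a higher change at 20 hr and 2888 with a lower one, and it also passed for each gene named here. The differences below are on the log2(TPM + 1) scale, 20 hr minus 0 hr, and these genes are those of the naming rule whose changes had opposite signs at both times or whose difference was among the largest. They were picked for their difference, so its size is a description.

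Among these genes cuticle collagens had the widest gaps, with negative changes at 0 hr and positive ones at 20 hr. The differences were 10.84 for col-81, 10.62 for col-139, 10.33 for col-129, 8.66 for bli-6, 8.27 for col-142 and 8.02 for col-159. Levels of bli-6 at 20 hr are given above. For col-81 and col-139 the changes at 20 hr were 1.002 and 1.28 and did not pass. Both passed with the replicate number as a block (limma adjusted p = 0.011 and 0.00046) and without atp-2 RNAi replicate 2 (0.0029 and 0.0043), and col-139 also in 1 fit of 10 libraries (0.034). In controls of 20 hr col-81 stood at 2.26, 1.77 and 3.59 TPM, and in atp-2 RNAi replicates 2 and 3 at 2.18 and 14.1 TPM, so the groups overlapped. Its change was 2.13 without atp-2 RNAi replicate 2 and -0.12 without replicate 3. For col-159 the levels at 20 hr were 9.17, 12.98 and 22.1 TPM in controls and 878 and 774 TPM in atp-2 RNAi (log2 change 5.80, SE 0.31, adjusted p = 2.2e-06), with no overlap. The change of col-129 was 1.73, and it no longer passed without atp-2 RNAi replicate 3 (0.65), without control replicate 1 (1.73), with no filter on low values (1.73) and under quantile normalization (1.44). A collagen gene of the opposite pattern was col-158, with a difference of -3.19 and a change at 20 hr of -1.52, which no longer passed without atp-2 RNAi replicate 2 (-1.09).

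The 3 sperm genes with such gaps fell at 0 hr and were higher at 20 hr, from levels near 0 in every control of 20 hr, and they reached a mean of 1 TPM only through the atp-2 RNAi libraries. The differences were 8.48 for ssq-4, 8.29 for msp-59 and 7.47 for msp-57. Of these msp-57 stood at 0.0868, 0 and 0.120 TPM in controls of 20 hr and 1.25 and 3.76 TPM in atp-2 RNAi, and ssq-4 at 0.0775, 0.124 and 0.131 TPM and 1.94 and 7.201 TPM. Near-identical copies exist for the major sperm protein genes, so reads may be shared among them.

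Members of the pud family had differences of -3.75 for pud-1.2, -3.70 for pud-2.1, -3.40 for pud-3, -3.20 for pud-2.2 and -3.11 for pud-1.1. Further genes with a lower change at 20 hr were T19C9.8 (-3.12), tba-8, an alpha tubulin gene (-2.99), nhr-23, a nuclear receptor gene needed for molting (-2.29), and daf-19, the RFX factor gene of sensory cilia (-1.19). The molting regulator nhr-23 stood at 42.3, 58.2 and 61.7 TPM in controls of 20 hr and 9.52 and 27.2 TPM in atp-2 RNAi, a change of -1.66 where that at 0 hr was 0.63. Both treated libraries lay below every control, and the change was -0.95 without atp-2 RNAi replicate 2 and no longer passed under quantile normalization (-1.42). For T19C9.8 the change at 20 hr was -0.25, did not pass, and was 0.82 without atp-2 RNAi replicate 2 and 0.02 without control replicate 3. The fall of daf-19 (-0.66) no longer passed without atp-2 RNAi replicate 2 (-0.53) or control replicate 2 (-0.55). In the other direction ceh-60, a homeobox gene known to promote yolk production, had a difference of 2.36, from -1.22 at 0 hr to 1.14 at 20 hr.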

How the results depend on the processing

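Counts of higher and lower genes followed the filter on low values. With no filter 9342 of 24593 genes were higher, and with a mean of at least 5 TPM 3925 of 9874, where the median of all genes was -0.34 in place of 0.31. Leaving out 1 library at a time gave 5920 to 6090 higher and 4988 to 5208 lower genes, and a change of atp-2 between -3.35 and -3.11. With a minimum of 2-fold the counts were 5311 and 4250. For the difference between the times, leaving out 1 library gave 1590 to 2568 genes with a higher change at 20 hr and 1236 to 3291 with a lower one, and quantile normalization gave 1882 with a lower one. The filter sets how many genes are tested. For the other settings the cause was not tested.

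The replicate number as a block gave 6109 higher and 5157 lower genes, a change of atp-2 of -3.35, and 2108 and 2403 genes whose change was higher and lower at 20 hr than at 0 hr. Deviations of same-numbered control and atp-2 RNAi libraries from their group means correlated at -0.0716 for number 2 and 0.00505 for number 3. With 2 treated libraries these deviations mirror each other, so the correlations cannot decide whether the numbers pair the samples. The labels do not say that a number marks a shared culture, so the main fit had no block.

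For 169 named genes, 2331 of 2357 changes under the alternatives kept their direction and side of the threshold, 14 fell short of it, 8 passed it and 4 changed sign. The changes of sign were hsp-6 under quantile normalization (-0.032), T19C9.8, which ran from -1.31 to 0.82 as 1 library was left out, and col-81, which ran from -0.12 to 2.13. Of 200 counts of list members, quantile normalization moved 46 by over 1.5 times, a mean of at least 5 TPM 42, no filter 28, the other alternatives 1 to 13 each. With 2 treated libraries and unknown depth, the spread of the treated group rests on 1 difference. In simulated data of 12916 genes for the 20 hr comparison, 60% of genes changed 2-fold and 93% of those changed 4-fold were recovered, with 5 false calls. That simulation changed only 100 genes by each fold, none of them near 0 in controls. It gave both groups the spread of the controls. In the data 88.3% of genes passed, so these figures check the fit and do not measure recovery or false calls in this comparison.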

Other observations

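The genes in this paragraph were chosen after their values were seen. Among the 34 lower genes that were at least 2-fold below every single control of 24, 36 and 48 hr, several encode parts of the machinery that moves new proteins into the endoplasmic reticulum and adds sugars to them. The translocon channel gene sec-61 (IV:14822540-14825264) stood at 364, 829 and 836 TPM in controls of 20 hr, 239 and 315 TPM in atp-2 RNAi and 1074, 969.7 and 1257 TPM in the single controls (20 hr log2 change -1.199, SE 0.36, adjusted p = 0.014, limma). Control replicate 1 was the low control and lay above both treated libraries, and the change of sec-61 no longer passed without atp-2 RNAi replicate 2 (adjusted p = 0.15), without replicate 3 (0.063) or with no filter on low values (0.074). The smaller channel subunit gene emo-1 (V:10896658-10897143) stood at 309, 303 and 304 TPM, 191 and 184 TPM and 587, 609.9 and 673 TPM in the same order (log2 change -0.70, SE 0.11, adjusted p = 0.00048). The translocon-associated genes trap-1 and trap-3 changed by -0.81 and -0.87. The oligosaccharyltransferase subunit gene ostb-1 stood at 166, 161 and 139.9 TPM in controls of 20 hr and 51.4 and 53.7 TPM in atp-2 RNAi (log2 change -1.55, SE 0.13, adjusted p = 1.6e-05), and ostd-1 changed by -1.18. In all 6 genes the treated libraries of 20 hr lay below each control of 20 hr and each single control. The single atp-2 RNAi library of 24 hr lay above the 24 hr control for trap-1 (685 and 641 TPM) and ostd-1 (180 and 174 TPM). It lay below for sec-61 (1021 and 1074 TPM), ostb-1 (113 and 117 TPM), emo-1 (484 and 587 TPM) and trap-3 (404 and 472 TPM). At 36 hr the single atp-2 RNAi library was the lower for all 6 genes.

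Genes far above the single controls included runs of neighbours with sequence names only, also chosen after their values were seen. On chromosome V the genes T16G1.7, T16G1.6, T16G1.5 and T16G1.4 lie within V:12932941-12941847 (WBcel235). Their levels in atp-2 RNAi replicates 2 and 3 were 191 and 88.2 TPM for T16G1.7, 192 and 174 TPM for T16G1.6, 52.2 and 35.3 TPM for T16G1.5 and 119.8 and 72.9 TPM for T16G1.4. In controls of 20 hr T16G1.6 stood at 1.13, 0.475 and 0.534 TPM and T16G1.5 at 0.118, 0.163 and 0.111 TPM, and the single controls of 24, 36 and 48 hr had 8.45, 3.92 and 6.70 TPM and 1.28, 0.516 and 0.995 TPM of them. R08F11.4 (V:3803845-3805531) lies close to cyp-33C8, named above, and stood at 4.72, 3.82 and 3.44 TPM in controls and 328 and 359 TPM in atp-2 RNAi (log2 change 6.114, SE 0.16, adjusted p = 2.1e-07). F22B3.7 (IV:11417581-11421796) stood at 0.149, 0.0216 and 0 TPM in controls of 20 hr, 176 and 109.8 TPM in atp-2 RNAi, 0, 0.0903 and 0.103 TPM in the single controls and 24.6, 26.8 and 96.9 TPM in the single atp-2 RNAi libraries of 24, 36 and 54 hr. It was near 0 in each control of the 4 times given and at 24.6 TPM or more in each atp-2 RNAi library given.

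Some collagen genes were high at 20 hr and low in every single control, unlike the body shape collagens, and the 3 given here were picked by their values. The gene col-42 (V:18638484-18639591) stood at 219.7, 203 and 258 TPM in controls of 20 hr, 3528 and 2138 TPM in atp-2 RNAi and 203, 183 and 95.9 TPM in the single controls (log2 change 3.5996, SE 0.22, adjusted p = 3.5e-06). For col-103 the levels were 116, 141 and 181 TPM, 2150.5 and 1467 TPM and 113, 116 and 65.4 TPM (log2 change 3.62, SE 0.23, adjusted p = 3.9e-06), and for col-98 147, 127 and 164 TPM, 1899 and 1333 TPM and 85.0, 104 and 60.2 TPM (log2 change 3.44, SE 0.19, adjusted p = 2.2e-06). All 3 genes had more RNA in controls of 20 hr than in the single control of 48 hr.

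Small noncoding gene types had 13 of 16 tRNA genes higher and 2 lower, 16 of 19 piRNA genes higher and 2 lower, and 12 of 22 snoRNA genes higher and 6 lower. Mitochondrial tRNA genes are among the higher tRNA genes, since all 26 tested genes of mitochondrial DNA were higher and only 12 encode proteins. Only 2 rRNA genes of any origin were higher, so most of the 13 higher tRNA genes are mitochondrial. The tRNA count thus largely repeats that rise. The labels name total RNA and a kit, and do not say which lengths of RNA it kept.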
